A study of Mus musculus with 9 samples.

Results

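Ribosome biogenesis factors are the nucleolar proteins and ribonucleoprotein subunits that make, modify, cut and fold pre-ribosomal RNA and carry the immature subunits towards export. The 52 genes described here came from a fixed list of names, chosen with earlier results of these data known. They were looked up by symbol in a mouse annotation. All 52 were found among the 55573 gene identifiers of the series, and all 52 passed the filter on low counts that left 13328 genes for testing. Bulk RNA was sequenced from splenic CD4+ T cells of B6 mice, with 3 libraries in each of 3 groups. Cells of the first group were activated for 3 h at 39 °C, a febrile temperature, and cells of the second for 3 h at 37 °C, both on plates coated with antibodies to CD3 and CD28. The third group was naive, called untreated in the labels, and the labels do not say whether it spent the same 3 h in medium. The source is given as CD4+ T cells while the growth protocol puts spleen cells on the plates, and the order of sorting and activation is not given. Whether replicate libraries are separate animals or cultures is also not given, so p-values here cover the spread among these libraries alone, which may be technical.

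Ribosome production starts with transcription of ribosomal DNA by RNA polymerase I. Guided by small nucleolar RNAs (snoRNAs), C/D particles methylate and H/ACA particles pseudouridylate the transcript, while the small subunit processome folds and cleaves the part that becomes 18S rRNA. Separate sets of factors then mature the pre-40S particle and build the 60S particle. T cells that leave quiescence enlarge their nucleoli and make more ribosomes before they divide, and genes of this pathway are known targets of the transcription factor MYC.

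The depth was 12647692 to 17605549 counts per library. The 52 factors together took 1.19 to 1.23% of all counts at 39 °C, 1.23 to 1.25% at 37 °C and 0.472 to 0.492% in naive cells. Levels below are counts per 1e6 counts of the library (CPM), scaled by library size and TMM factors, with the SD over 3 libraries after ±. Fold changes are on the log2 scale with their standard error after ±. A gene is called changed when its adjusted p is under 0.05 in the edgeR quasi-likelihood test with Benjamini-Hochberg adjustment over all 13328 genes. In bulk RNA, fewer cells of a type and less RNA per cell cannot be told apart. The 5 CD4 T cell markers were all present in every group, with sums of 2625 to 2843 CPM at 39 °C, 2415 to 2594 CPM at 37 °C and 2555 to 3236 CPM in naive cells. Of the 5, 2 were called lower than in naive cells at 39 °C (Cd4 and Cd3d) and 3 at 37 °C (Cd3g as well). Cd4 itself had 606 to 627 CPM at 39 °C, 598 to 628 CPM at 37 °C and 729.9 to 848 CPM in naive cells. The share of counts in 81 ribosomal protein genes was 8.22 to 9.97% at 39 °C and 7.76 to 8.83% at 37 °C. It spread more widely in naive cells, at 14.5%, 10.2% and 12.04% in libraries 1, 2 and 3.

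The comparison of activated with naive cells takes in 3 h of stimulation and any difference in culture or cell composition. These cannot be told apart here. At 37 °C, 50 of the 52 factors were called higher than in naive cells and 0 were called lower, where 30.9% of all genes tested were called higher and 31.8% lower. At least 2-fold rises were called for 43 factors (82.7%), against 10.8% of all genes. The median log2 fold change of the 52 was 1.44 at 37 °C against naive, beside -0.0025 over all genes tested, with a range from 0.13 ± 0.14 for Imp3 to 2.21 ± 0.13 for Rrp12. In the comparison of 39 °C with naive cells, 50 of 52 were again called higher and 0 lower, where 29.2% of all genes were called higher and 29.8% lower, and 44 rose at least 2-fold, against 9.34% of all genes. The median there was 1.40, and the range ran from 0.10 ± 0.14 for Imp3 to 2.18 ± 0.066 for Grwd1. Both comparisons use the same naive libraries. The largest adjusted p among the called factors was 5.75e-05 at 39 °C and 5.69e-05 at 37 °C, both for Npm1 (edgeR). DESeq2 called 50 higher and 0 lower at each temperature, and all 52 fitted fold changes were above 0. The uncalled genes, Nop10 and Imp3, were the same in both comparisons.

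Markers of other cell types also differed between activated and naive cells. Together, 7 B cell markers had 226 to 238 CPM per library at 39 °C and 208 to 216 at 37 °C, against 702 to 838 in naive cells, most of it from Ighm. For 6 erythroid markers the sums were 2.94 to 4.18, 2.80 to 3.22 and 135 to 225 CPM in the same order, with 1 of the 6 genes at 0 counts in each activated group. Sums of 2 CD8 T cell markers were 12.6 to 14.6, 13.5 to 15.1 and 25.8 to 36.1 CPM. For 4 NK cell markers they were 6.79 to 9.85, 10.4 to 11.6 and 14.2 to 17.0 CPM, and for 7 myeloid markers 0.874 to 1.18, 0.5001 to 0.932 and 9.32 to 11.8 CPM, with 1 myeloid gene at 0 counts in each activated group. Most of the NK cell sum was Eomes, which T cells also express, with 6.48 to 9.46, 9.79 to 11.03 and 12.1 to 14.9 CPM, while Ncr1, Klrb1c and Klrk1 had at most 1.26 CPM each in any library. The sums of all 5 lists were higher in naive cells, and their part in the rise of the biogenesis factors was not tested.

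**Figure D1:**
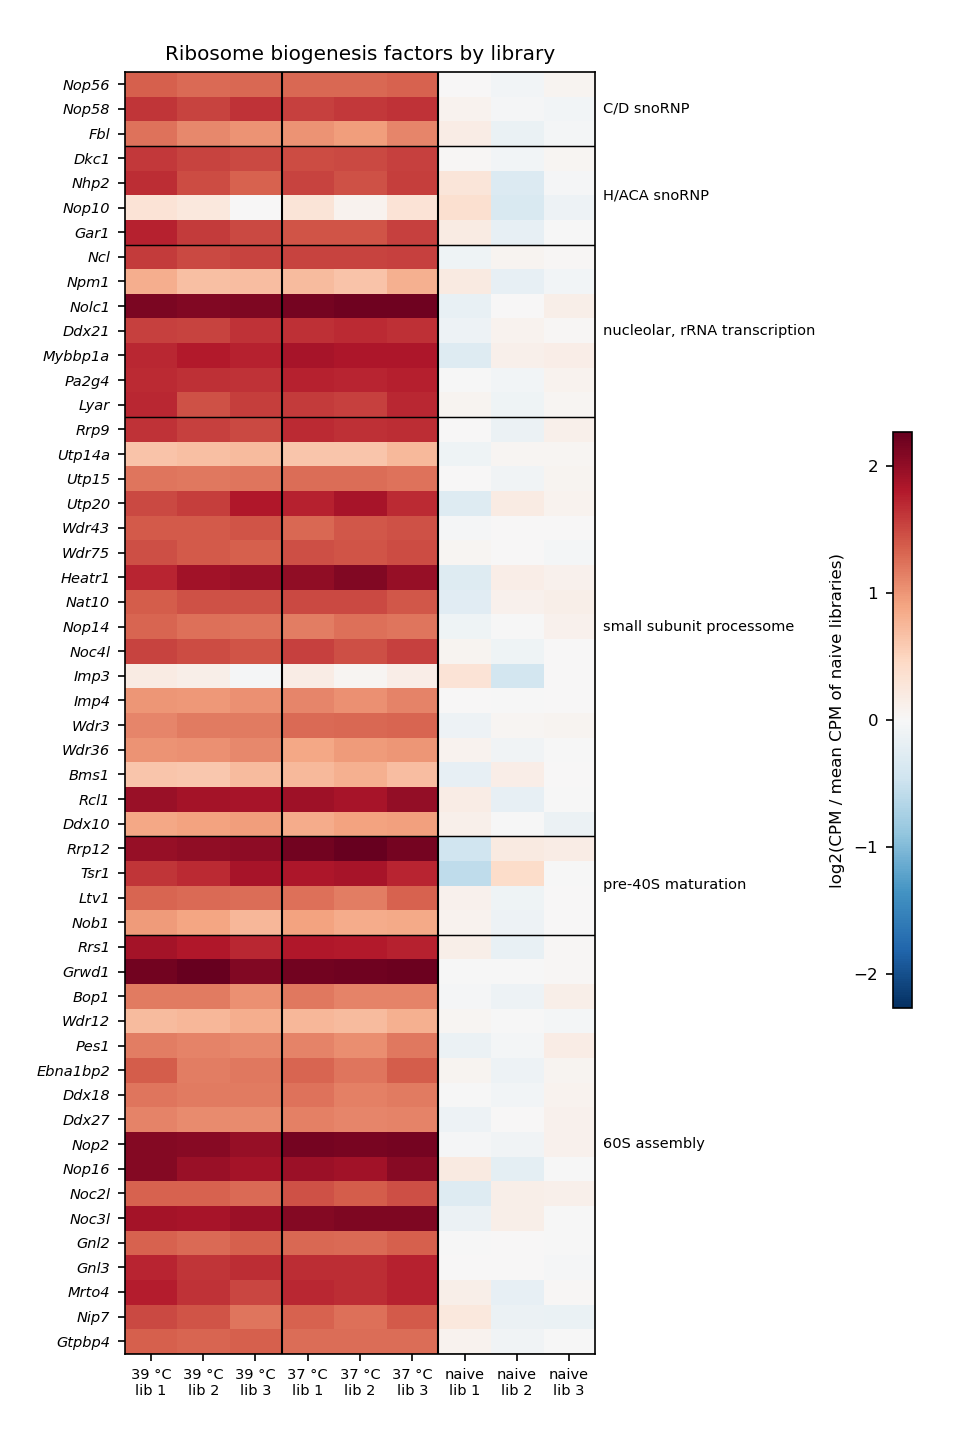
Each cell of the map is 1 of the 52 factors in 1 library, coloured by log2 of its CPM over the mean of the 3 naive libraries, with libraries at 39 °C on the left, 37 °C in the middle and naive on the right, and genes grouped by role. All factors except Nop10 and Imp3 are redder in each of the 6 activated libraries than in each naive library, and the 39 °C and 37 °C blocks look alike. Activated libraries lay entirely above naive ones for 30.8% of all genes tested at 39 °C and 32.7% at 37 °C.

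The 4 promoters below hold the letters CACGTG, an E-box to which MYC and its partner MAX are known to bind. Whether MYC has a part in the rise of the list was not tested. Myc had 578.5, 565 and 555 CPM at 39 °C, 616, 604 and 608 CPM at 37 °C, and 105, 91.0 and 101.4 CPM in naive cells, a log2 fold change of 2.52 ± 0.074 at 39 °C and 2.62 ± 0.074 at 37 °C against naive. The windows are RefSeq promoter sequences of GRCm38.p6, from 250 bases before to 50 bases after the annotated start, written 5′ to 3′ on the strand of the gene with the match in capitals. They belong to the genes with the lowest adjusted p for 37 °C against naive among those with a match: Grwd1 at chr7:45830740-45831039 on the minus strand, Nop2 at chr6:125131633-125131932, Wdr43 at chr17:71615965-71616264 and Imp4 at chr1:34439579-34439878 on the plus strand. 
Grwd1: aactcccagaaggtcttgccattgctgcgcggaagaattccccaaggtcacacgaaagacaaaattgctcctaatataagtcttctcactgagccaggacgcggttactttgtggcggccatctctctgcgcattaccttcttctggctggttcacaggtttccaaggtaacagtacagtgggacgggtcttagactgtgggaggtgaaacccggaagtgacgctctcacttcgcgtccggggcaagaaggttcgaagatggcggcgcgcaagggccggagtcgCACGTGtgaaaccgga
Nop2: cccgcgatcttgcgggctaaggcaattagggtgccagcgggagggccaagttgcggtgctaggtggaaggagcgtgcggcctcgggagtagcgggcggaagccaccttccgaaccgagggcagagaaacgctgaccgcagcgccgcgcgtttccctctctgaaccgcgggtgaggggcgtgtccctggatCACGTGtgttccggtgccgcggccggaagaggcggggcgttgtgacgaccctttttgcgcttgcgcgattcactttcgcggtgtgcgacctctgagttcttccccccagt
Wdr43: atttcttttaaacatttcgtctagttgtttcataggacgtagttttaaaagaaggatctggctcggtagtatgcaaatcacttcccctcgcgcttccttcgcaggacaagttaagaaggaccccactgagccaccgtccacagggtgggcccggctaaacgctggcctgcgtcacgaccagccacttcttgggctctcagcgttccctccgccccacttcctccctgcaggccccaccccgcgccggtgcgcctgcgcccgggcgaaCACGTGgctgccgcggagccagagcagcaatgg
Imp4: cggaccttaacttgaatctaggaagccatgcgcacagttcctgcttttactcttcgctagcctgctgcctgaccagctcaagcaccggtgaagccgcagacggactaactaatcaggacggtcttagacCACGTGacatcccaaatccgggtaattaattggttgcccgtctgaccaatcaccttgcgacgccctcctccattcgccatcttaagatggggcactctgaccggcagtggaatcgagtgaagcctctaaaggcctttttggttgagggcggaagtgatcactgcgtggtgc
In Grwd1 and Wdr43 the match begins 35 and 18 bases after the start, and in Nop2 and Imp4 60 and 121 bases before it. These positions depend on the RefSeq start. GENCODE M21 begins Grwd1 at 45830944 and Wdr43 at 71615895, before that start, and Nop2 at 125131909 and Imp4 at 34439851, after it. The last 45 window bases stood in a GENCODE transcript for 35 of the 45 factors with a window. Of the 45 factors with a window, 9 (20%) held CACGTG, the 4 above and Ltv1, Mybbp1a, Pes1, Tsr1 and Utp20. The share was 11.9% of the 9400 tested genes with a window and 8.09% of all 27025 genes. In 7 of the 9 the match lay after the start, and with the 250 bases before the start alone it was in 2 of 45 (4.44%), against 9.98% of tested genes. CCGGAAG, the letters that ETS family factors bind, was in 16 of 45 (35.6%), against 21.3% of tested genes, and with the 250 bases before the start alone in 10 of 45 (22.2%), against 16.6%. Among 82 other pathway genes with a window, 19.5% held CACGTG and 43.9% CCGGAAG. The palindrome bound by NRF1, searched as 1 fixed string of 10 letters, was in 0 of 45 windows of the factors and in 2.51% of those of tested genes. Both strands were searched, CACGTG reads the same on both, and no motif is contained in another. The median GC content was 59.7% in the windows of the 45 factors and 60.7% in those of tested genes. The matches describe letters in these windows, and binding was not measured.

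The C/D particle is represented by the genes of its scaffold proteins, Nop56 and Nop58, and of the methyltransferase fibrillarin (Fbl). All 3 were called higher than in naive cells, against 29.2% of all genes at 39 °C and 30.9% at 37 °C. Nop58 had 283, 264 and 286 CPM at 39 °C, 268, 281 and 285 at 37 °C, and 97.5, 89.9 and 88.2 CPM in naive cells. Its log2 fold change against naive was 1.6 ± 0.069 at 39 °C and 1.6 ± 0.069 at 37 °C. The 6 activated libraries lie within a narrow band and every naive library is far below them. For Nop56 the changes were 1.32 ± 0.065 and 1.31 ± 0.065, and for Fbl 1.11 ± 0.093 and 1.03 ± 0.093, in the same order. Fibrillarin is the catalytic subunit, and its gene rose least of the 3 at both temperatures. Fbl averaged 291 ± 22.04 CPM at 39 °C, 275 ± 15.4 CPM at 37 °C and 134 ± 15.8 CPM in naive cells (SD, n = 3 each).

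Of the H/ACA particle, the genes of 3 of 4 subunits rose, where 29.2% of all genes were called higher at 39 °C and 30.9% at 37 °C. Dkc1 encodes dyskerin, the pseudouridine synthase itself, and had 201, 192 and 187 CPM at 39 °C, 186, 188 and 194 at 37 °C, and 67.8, 63.3 and 68.1 CPM in naive cells, a log2 fold change of 1.54 ± 0.064 and 1.51 ± 0.064 against naive at 39 °C and 37 °C. Changes of the same kind were 1.61 ± 0.099 and 1.47 ± 0.099 for Gar1 and 1.5 ± 0.13 and 1.51 ± 0.13 for Nhp2, both small proteins of the particle. Nop10, the smallest subunit, was not called. It had 82.3, 77.7 and 66.8 CPM at 39 °C, 80.7, 70.2 and 81.98 at 37 °C, and 85.4, 51.8 and 61.2 CPM in naive cells. Naive library 1 lay above every activated library, while naive libraries 2 and 3 lay below all of them. The Nop10 change was 0.19 ± 0.15 at 39 °C (adjusted p = 0.29, edgeR) and 0.23 ± 0.15 at 37 °C (adjusted p = 0.204, edgeR). Without naive library 1 it was called at both temperatures, with log2 fold changes of 0.42 (adjusted p = 0.00258, edgeR) and 0.45 (adjusted p = 0.0014, edgeR). With all libraries and every gene that had any count, it was called at 37 °C (log2 fold change 0.23, adjusted p = 0.0414, edgeR). 

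All 7 genes of nucleolar organisation and rRNA transcription rose, and Nolc1 rose most among them. Calls of a rise covered 29.2% of all genes tested at 39 °C and 30.9% at 37 °C. Nolc1, a chaperone of snoRNPs, had 394, 382 and 389 CPM at 39 °C, 404, 415 and 413 at 37 °C, and 80.1, 90.3 and 98.4 CPM in naive cells. That is 4.33-fold at 39 °C and 4.58-fold at 37 °C over naive (log2 2.12 ± 0.08 and 2.19 ± 0.08), with no overlap between activated and naive libraries. Mybbp1a, a nucleolar partner of MYB, rose by a log2 fold change of 1.75 ± 0.11 and 1.85 ± 0.11, and Ddx21, an RNA helicase of rRNA transcription and processing, by 1.57 ± 0.072 and 1.67 ± 0.073. Pa2g4 (EBP1), which associates with pre-ribosomes, rose by 1.67 ± 0.064 and 1.74 ± 0.064, and Lyar, a nucleolar cell growth regulator, by 1.57 ± 0.085 and 1.61 ± 0.086. Nucleolin (Ncl), which binds ribosomal DNA and the nascent transcript, had 1596, 1498 and 1543 CPM at 39 °C, 1545, 1543 and 1566 at 37 °C, and 495, 558 and 543 CPM in naive cells, a log2 fold change of 1.54 ± 0.075 and 1.54 ± 0.075. Nucleophosmin (Npm1), a nucleolar histone chaperone, rose least of the 7. It had 1243, 1128 and 1149 CPM at 39 °C, 1163, 1102 and 1239 at 37 °C, and 817, 623 and 676 CPM in naive cells, a log2 fold change of 0.73 ± 0.10 and 0.73 ± 0.10. Its naive libraries were all below the activated ones, and naive library 1 was the nearest to them.

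Per length of transcript, Npm1 was the most abundant of the 52 factors in every group, activated or naive. Divided by the length of its longest protein-coding transcript, its level was 719 ± 37.3 CPM per kb at 39 °C, 715 ± 41.9 at 37 °C and 432 ± 61.4 in naive cells. Fbl at 243 ± 18.4, 230 ± 12.9 and 112 ± 13.2 CPM per kb and Nop56 at 234 ± 6.84, 234 ± 3.46 and 94.0 ± 3.85 CPM per kb came next in activated cells, and these levels of Fbl and Nop56 overlap within their SD in activated cells. Ncl followed with 189 ± 5.98, 189 ± 1.52 and 64.9 ± 3.997 CPM per kb. The order below Npm1 depends on the length used: over all annotated exons Ncl came next to Npm1 at 37 °C with 152 CPM per kb, while Nop56 and Fbl had 107 and 65.4. At the low end, Wdr12 had 10.3 CPM per kb of its longest transcript at 37 °C and Utp20 17.8, with lengths of 10012 and 8821 bp. Which transcript was expressed was not determined, and a level is too low where a shorter one was. The rise on activation differed between the most abundant factors, with Npm1 at a log2 fold change of 0.73 ± 0.10 and Ncl at 1.54 ± 0.075 at 37 °C.

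Of the 17 genes of the small subunit processome, 16 rose at each temperature. The share called higher over all genes tested was 29.2% at 39 °C and 30.9% at 37 °C. Heatr1, the mouse counterpart of yeast Utp10 in the UTP-A complex that joins the nascent transcript early, had 252, 284 and 294 CPM at 39 °C, 306, 326 and 296 at 37 °C, and 62.1, 83.98 and 81.02 CPM in naive cells. Its log2 fold change of 1.87 ± 0.11 at 39 °C and 2.03 ± 0.11 at 37 °C was the highest fitted value of the processome at 37 °C, although without naive library 1 it was 1.91, below the 2.02 of Rcl1. The other UTP-A genes rose by less: Utp15 by 1.2 ± 0.062 and 1.25 ± 0.062, Wdr43 by 1.4 ± 0.064 and 1.38 ± 0.064, and Wdr75 by 1.4 ± 0.062 and 1.46 ± 0.062. Rcl1, which binds the GTPase Bms1, had 154, 146 and 144 CPM at 39 °C, 149.8, 145 and 157 at 37 °C, and 44.4, 34.9 and 39.3 CPM in naive cells, a log2 fold change of 1.9 ± 0.086 and 1.93 ± 0.086, whereas Bms1 itself rose by 0.66 ± 0.082 and 0.74 ± 0.082. These partners differ in the size of the rise by over 1 log2 unit, and for both every activated library lay above every naive one. Wdr3 and Wdr36 of the UTP-B complex rose by 1.16 ± 0.067 and 1.05 ± 0.066 at 39 °C and by 1.3 ± 0.067 and 0.94 ± 0.066 at 37 °C.

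Imp3 and Imp4 bind the U3 snoRNA together, and Rrp9 is a core protein of the U3 particle. Rrp9 had 199, 186 and 179 CPM at 39 °C, 206, 201 and 204 at 37 °C, and 63.9, 57.8 and 69.1 CPM in naive cells, a log2 fold change of 1.56 ± 0.076 at 39 °C and 1.68 ± 0.077 at 37 °C. Imp4 had 147, 145 and 150 CPM at 39 °C, 158, 151 and 159 at 37 °C, and 74.1, 72.5 and 73.3 CPM in naive cells, a change of 1.01 ± 0.058 and 1.09 ± 0.058. Both were higher in all activated libraries. Imp3 had 100.3, 96.8 and 86.4 CPM at 39 °C, 99.2, 91.3 and 97.8 at 37 °C, and 109, 66.4 and 88.8 CPM in naive cells. Its naive libraries span the whole range of the activated ones, with naive library 1 above and naive library 2 below all of them, and the change was 0.10 ± 0.14 at 39 °C (adjusted p = 0.546, edgeR) and 0.13 ± 0.14 at 37 °C (adjusted p = 0.447, edgeR). Without naive library 1, Imp3 was called higher at 39 °C (log2 fold change 0.28, adjusted p = 0.0296, edgeR) and at 37 °C (0.30, adjusted p = 0.0196, edgeR), and without naive library 2 its fold changes were -0.064 and -0.041. With upper-quartile scaling they were -0.024 and -0.0074, so the data give Imp3 no stable direction.

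Among the remaining processome genes, Utp20, a very large scaffold protein, had 129.7, 137 and 162 CPM at 39 °C, 155, 167 and 148 at 37 °C, and 37.4, 52.1 and 48.5 CPM in naive cells, a log2 fold change of 1.63 ± 0.12 and 1.77 ± 0.12 at 39 °C and 37 °C. Noc4l rose by 1.48 ± 0.068 and 1.52 ± 0.068, and Nop14, to which the NOC4 protein binds in yeast, by 1.26 ± 0.069 and 1.21 ± 0.069. Nat10, the acetyltransferase of 18S rRNA, rose by 1.42 ± 0.093 and 1.47 ± 0.093. The smallest called rises of this group were those of the RNA helicase gene Ddx10, at 0.92 ± 0.073 and 0.90 ± 0.073, of Bms1, and of Utp14a, at 0.69 ± 0.07 and 0.67 ± 0.07. Utp14a, which activates a processome helicase in yeast, had 60.3, 61.8 and 63 CPM at 39 °C, 59.3, 59.5 and 64.05 at 37 °C, and 35.6, 39.5 and 39.7 CPM in naive cells. Even for it, the lowest activated library was above the highest naive one.

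All 4 genes of pre-40S maturation rose, where 29.2% of all genes were called higher at 39 °C and 30.9% at 37 °C. Rrp12, which takes part in the export of pre-ribosomal particles, shared the highest fitted rise at 37 °C with Grwd1. It had 133, 135 and 138 CPM at 39 °C, 154, 162 and 152 at 37 °C, and 24.7, 38.5 and 37.6 CPM in naive cells, which is 4.02-fold at 39 °C (log2 2.01 ± 0.13) and 4.63-fold at 37 °C (2.21 ± 0.13) over naive. The gene (ENSMUSG00000035049) lies on the minus strand of chromosome 19 at 41862851 to 41896173 in GRCm38. Its naive library 1 was far below naive libraries 2 and 3, and without that library the change at 37 °C was 2.03, below that of Grwd1, which stayed at 2.20 to 2.22 when any library was left out. A low naive library 1 was also seen for Tsr1, which in yeast blocks premature subunit joining on the pre-40S particle, with 85.7, 89.6 and 101 CPM at 39 °C, 98.7, 101 and 92.3 at 37 °C, and 18.8, 37.01 and 27.7 CPM in naive cells and a log2 fold change of 1.73 ± 0.17 and 1.81 ± 0.17. Ltv1, an assembly factor that leaves the particle after its phosphorylation, rose by 1.28 ± 0.072 and 1.25 ± 0.072, and Nob1, the endonuclease that makes the mature end of 18S rRNA, by 0.88 ± 0.075 and 0.87 ± 0.075. Of Tsr1 exons, 32.3% overlap the gene Srr on the annotation, and the strand setting of the counting is not given, so its counts are less certain than those of the rest.

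All 17 genes of 60S assembly rose at both temperatures, against 29.2% of all genes called higher at 39 °C and 30.9% at 37 °C. Grwd1, the counterpart of a yeast chaperone of the ribosomal protein Rpl3, had 122, 128 and 116 CPM at 39 °C, 123, 125 and 126 at 37 °C, and 26.7, 26.9 and 27.3 CPM in naive cells, which is 4.53-fold at 39 °C (log2 2.18 ± 0.066) and 4.63-fold at 37 °C (2.21 ± 0.066) over naive. Its naive libraries differ by less than 1 CPM, and its fitted rise at 39 °C was the highest of the list, with Nolc1 at 2.12 ± 0.08 within the errors. Nop2, an rRNA cytosine methyltransferase, had 238, 234 and 221 CPM at 39 °C, 251, 249 and 252 at 37 °C, and 54.99, 53.1 and 59.99 CPM in naive cells, a change of 2.04 ± 0.069 and 2.16 ± 0.069. Noc3l, whose yeast counterpart pairs with that of Noc2l, had 102, 101 and 107 CPM at 39 °C, 117, 121 and 119.8 at 37 °C, and 25.2, 30.5 and 27.3 CPM in naive cells, a change of 1.9 ± 0.076 and 2.11 ± 0.077, and Noc2l itself rose by 1.32 ± 0.10 and 1.42 ± 0.10. Nop16, a nucleolar 60S factor, rose by 1.98 ± 0.10 and 1.97 ± 0.10, and Rrs1, which helps to bring the 5S particle into the subunit, by 1.81 ± 0.083 and 1.78 ± 0.083. Each of these genes was higher in all 6 activated libraries than in any naive library.

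Pes1, Bop1 and Wdr12 form the PeBoW complex, which is needed to make 28S and 5.8S rRNA, and its 3 genes rose by less than the median of the list. Pes1 rose by 1.13 ± 0.081 and 1.13 ± 0.081 at 39 °C and 37 °C, Bop1 by 1.13 ± 0.078 and 1.15 ± 0.078, and Wdr12, the smallest rise of the 60S genes, by 0.77 ± 0.062 and 0.76 ± 0.063. Wdr12 had 100.5, 103 and 108 CPM at 39 °C, 102, 100.1 and 107 at 37 °C, and 62.7, 60.7 and 59.3 CPM in naive cells. The GTPase genes rose by 1.68 ± 0.063 and 1.69 ± 0.063 for Gnl3 (nucleostemin), 1.34 ± 0.063 and 1.27 ± 0.063 for Gtpbp4 and 1.32 ± 0.06 and 1.31 ± 0.06 for Gnl2. The RNA helicase genes Ddx18 and Ddx27 rose by 1.19 ± 0.063 and 1.09 ± 0.068 at 39 °C and by 1.19 ± 0.063 and 1.12 ± 0.068 at 37 °C. Mrto4, whose protein holds the place of the ribosomal stalk, rose by 1.65 ± 0.092 and 1.71 ± 0.092, Nip7, a pre-rRNA processing factor, by 1.38 ± 0.11 and 1.33 ± 0.11, and Ebna1bp2, the counterpart of yeast Ebp2, by 1.24 ± 0.082 and 1.31 ± 0.082. For all 17 genes the lowest activated library was above the highest naive one, as for 32.7% of all genes tested at 37 °C and 30.8% at 39 °C.

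**Figure D2:**
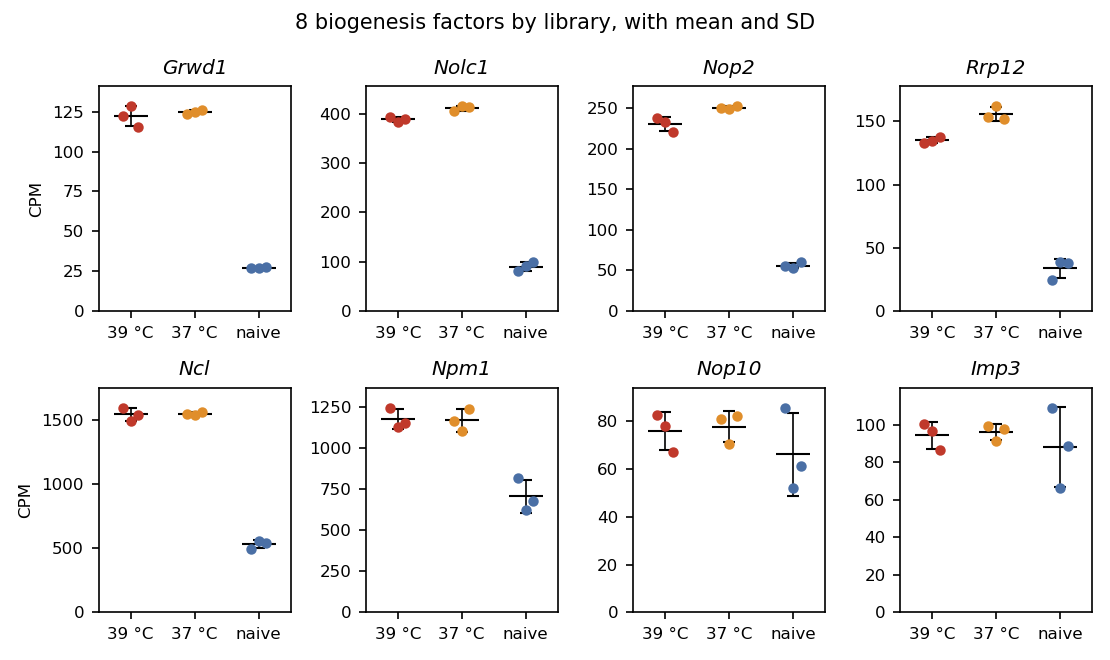
CPM of 8 factors in each library, with 39 °C left, 37 °C in the middle and naive on the right; points are libraries, the line is the mean and the bars are the SD (n = 3). Grwd1, Nolc1, Nop2, Rrp12 and Ncl separate widely from naive cells, Npm1 by less, and for Nop10 and Imp3 naive library 1, the left point of its group, is above all activated libraries.

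The comparison of 39 °C with 37 °C asks whether a febrile temperature during activation alters the response. Among the 52 factors edgeR called 0 higher and 0 lower, where 0.135% of all genes tested were called higher and 0.623% lower. DESeq2 also called 0, and 1 factor (1.92%), Noc3l, had an unadjusted p under 0.05, against 7.96% of all genes. The median log2 fold change of the 52 was -0.024, beside 0.0041 over all genes. The values ran from -0.21 ± 0.12 for Rrp12 to 0.15 ± 0.094 for Gar1. Every 95% interval of the 52 lay within a 1.5-fold change either way, with bounds from -0.47 to 0.35 on the log2 scale. These intervals, errors and calls come from the fit of all 9 libraries, so the spread among naive libraries enters them. In data simulated for this comparison over 12884 genes, edgeR recovered 27 of 49 genes changed 1.5-fold and 8 of 49 changed by 0.32 on the log2 scale. Most differences of the smaller size were thus not recovered in those data. The median standard error here was 0.073 for the 52 factors, beside 0.121 over all genes tested. The simulated naive libraries had the means of the 37 °C group, unlike the real ones, and recovery for the 52 factors alone was not tested.

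Noc3l (ENSMUSG00000024999, minus strand of chromosome 19 at 38788128 to 38819237 in GRCm38) had the lowest unadjusted p of the 52. In the library values given above, its 3 levels at 39 °C were all below its 3 levels at 37 °C, with a log2 fold change of -0.21 ± 0.071 (adjusted p = 0.395, edgeR). The same separation held for Wdr3, with 115, 121 and 121 CPM at 39 °C against 129.8, 131 and 133 CPM at 37 °C (log2 -0.14 ± 0.065, adjusted p = 0.63, edgeR). For Nop2 the change was -0.12 ± 0.065 and for Rrp12 -0.21 ± 0.12, and their libraries at 39 °C were all below those at 37 °C. Rrp9 (-0.12 ± 0.074), Heatr1 (-0.16 ± 0.10), Imp4 (-0.08 ± 0.057) and Ddx21 (-0.098 ± 0.07) behaved alike in this respect. Wdr36 was on the other side, with 122, 124 and 128 CPM at 39 °C against 110.3, 117 and 119.6 CPM at 37 °C, a log2 fold change of 0.11 ± 0.065. Gar1 had 95.4, 85.6 and 80.6 CPM at 39 °C against 76.5, 76.6 and 83.2 CPM at 37 °C, a change of 0.15 ± 0.094, and these libraries overlap. None of these 10 genes, the 10 with the lowest unadjusted p, was called.

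In all, the libraries at 39 °C lay entirely below those at 37 °C for 13 factors (25%), against 10.3% of all genes, and entirely above for 2 (3.85%), against 10.7% of all genes. Beside the 8 genes just named, Nolc1, Mybbp1a, Pa2g4, Utp15 and Noc2l were below, and Gtpbp4 was above with Wdr36. These 6 were named after their values were seen. The fold changes of the 13 are small, from -0.21 ± 0.12 for Rrp12 to -0.051 ± 0.06 for Utp15, and no p is given for the count because genes of 1 pathway are not independent. The count was 13 with RLE or upper-quartile scaling and 12 with library size alone. A fit of the 6 activated libraries alone called 2 factors lower, Noc3l (adjusted p = 0.0302, edgeR) and Rrp12 (adjusted p = 0.0292, edgeR), where it called 2.08% of all genes lower. The fit without naive library 1 called Rrp12 lower (log2 fold change -0.21, adjusted p = 0.0449, edgeR), beside 1.49% of all genes.

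**Figure D3:**
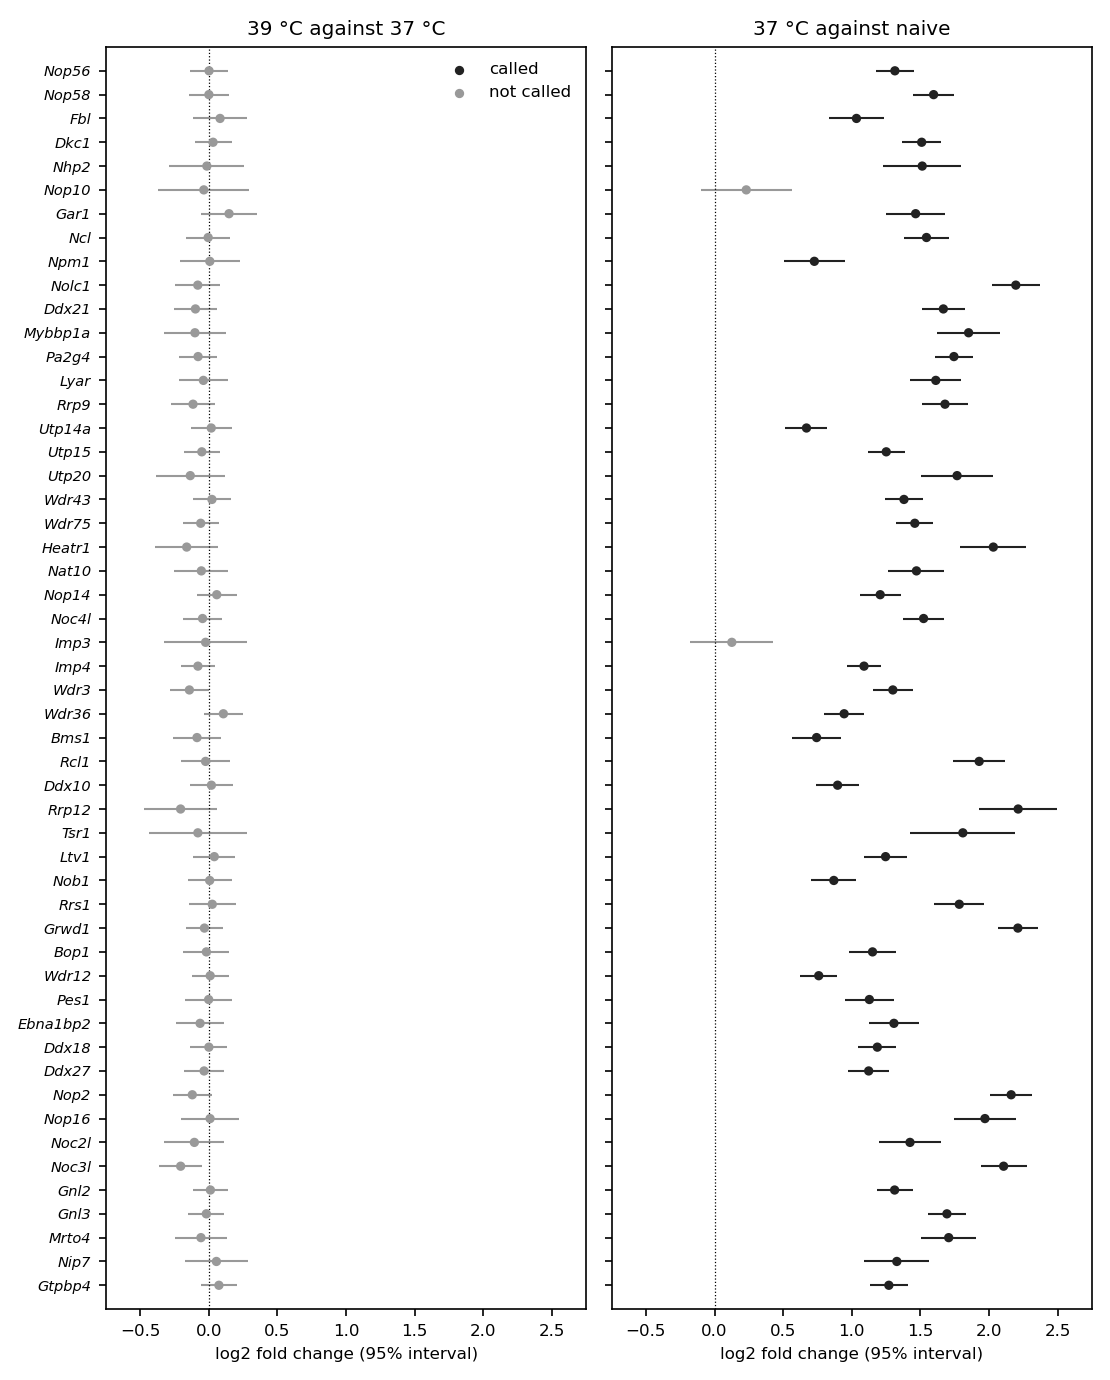
Log2 fold change of each of the 52 factors with its 95% interval from the edgeR fit, for 39 °C against 37 °C on the left and 37 °C against naive on the right, in the order of roles; black marks called genes and grey those not called. On the left all points lie between -0.21 and 0.15 and none is called, and on the right 50 of 52 are called higher, all except Nop10 and Imp3.

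A further list of 100 genes of the pathway was set beside the 52 factors. Of these, 99 were tested, and Exosc6 had 0 counts. At 37 °C against naive, 83 of 99 were called higher and 5 lower, where 30.9% of all genes tested were called higher and 31.8% lower. The median log2 fold change of the 99 was 0.88. At 39 °C against naive, 86 were called higher and 2 lower, where 29.2% of all genes were called higher and 29.8% lower. The median there was 0.86. The median of the 52 factors was larger in both comparisons, but both lists were chosen with earlier results of these data known. The rise covered 26 of 33 other small subunit factors, 43 of 47 other large subunit factors, 7 of 9 snoRNP assembly factors and 7 of 10 RNA exosome genes at 37 °C. The largest rises at 37 °C were those of Naf1, an assembly factor of the H/ACA particle, at 2.5 ± 0.12, Rrp1b at 2.12 ± 0.089 and Ppan at 2.05 ± 0.069. The 5 genes called lower were Pih1d1 of the R2TP chaperone complex (-0.66 ± 0.093), Nop53, a 60S factor that recruits the exosome (-0.45 ± 0.086), Nsa2 (-0.38 ± 0.12), the exosome gene Exosc5 (-0.29 ± 0.11) and Zfp622 (-0.23 ± 0.078). Exosc5 and Zfp622 fall outside the naming rule and were named to complete the count. Only Nop53 (-0.37 ± 0.086) and Pih1d1 (-0.37 ± 0.092) were also called lower at 39 °C against naive. For 39 °C against 37 °C edgeR and DESeq2 called 0 of 99, where edgeR called 0.135% of all genes higher and 0.623% lower. In edgeR, 5 of the 99 (5.05%) had an unadjusted p under 0.05, against 7.96% of all genes. They were Pih1d1 (0.29 ± 0.095), Naf1 (-0.28 ± 0.10), Shq1 (-0.23 ± 0.093), Rbm28 (-0.15 ± 0.064) and Mtrex (-0.15 ± 0.063), named after their values were seen.

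Genes of rRNA transcription did not all move with the processing factors. Polr1b, a core subunit of RNA polymerase I, rose by a log2 fold change of 2.08 ± 0.078 at 39 °C and 2.21 ± 0.078 at 37 °C against naive, and Polr1a, the largest subunit, by 0.83 ± 0.12 and 0.90 ± 0.12. Rrn3, the initiation factor TIF-IA, rose by 0.82 ± 0.063 and 0.80 ± 0.063. Ubtf, which keeps ribosomal DNA open and recruits the polymerase, was lower: it had 136, 134.5 and 129 CPM at 39 °C, 149, 149 and 152 CPM at 37 °C, and 187, 211 and 223 CPM in naive cells. Its log2 fold change against naive was -0.64 ± 0.073 at 39 °C and -0.46 ± 0.072 at 37 °C, both called. Between 39 °C and 37 °C none of these genes or Myc was called by edgeR, with -0.17 ± 0.073 for Ubtf (unadjusted p = 0.0356, adjusted p = 0.57, edgeR) and -0.11 ± 0.069 for Myc.

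**Figure D4:**
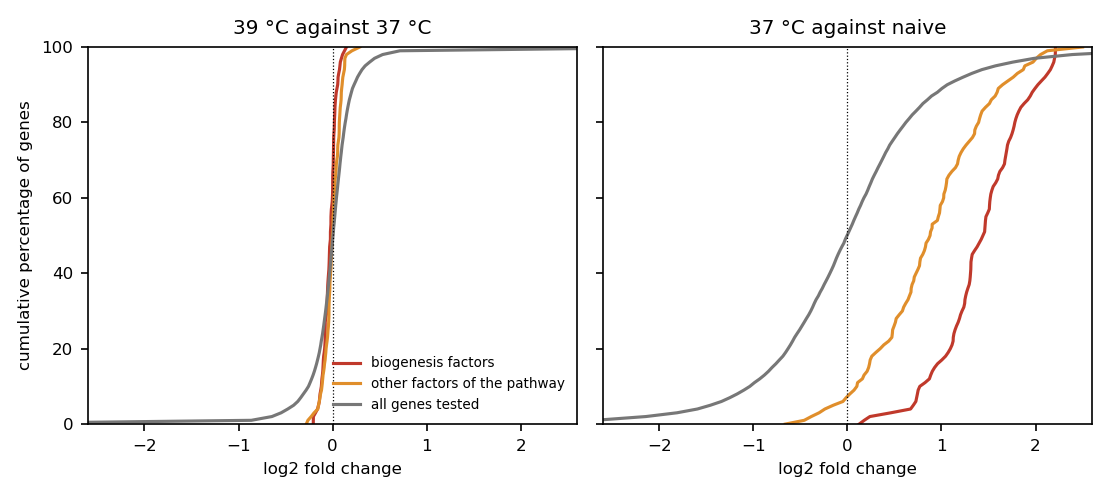
Cumulative percentage of genes (vertical axis) at or below each log2 fold change (horizontal axis) for the 52 biogenesis factors, 99 other factors of the pathway and all 13328 genes tested, at 39 °C against 37 °C on the left and 37 °C against naive on the right. On the right the curve of the 52 lies farthest to the right, with a median of 1.44, then that of the other factors at 0.88, and on the left all 3 curves cross 50% near 0.

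The spread within a group was larger in naive cells. The SD was 3.70% of the mean for the median factor at 39 °C, 3.18% at 37 °C and 7.27% in naive cells, where it reached 32.8% for Tsr1, and 10 factors exceeded 15%. The ratio of naive library 1 to the mean of naive libraries 2 and 3 was 0.58 for Tsr1, 0.649 for Rrp12 and 0.743 for each of Mybbp1a, Noc2l and Utp20, and 1.37 for Nhp2, 1.40 for Imp3 and 1.51 for Nop10. The last 3 genes have the shortest exon lengths of the list, 1146, 924 and 1109 bp. The longest, Wdr12 with 11955 bp and Nop58 with 10758 bp, were at 1.04 and 1.09. Among the low ratios, Noc2l has 2867 bp and Utp20 10199 bp. These lengths sum all annotated exons, and which transcript of a gene was expressed was not determined. Over the 52 genes the deviation of a library from the mean of the other libraries of its group correlated with log exon length at r = -0.63, -0.26 and 0.71 in libraries 1, 2 and 3 at 39 °C, beside -0.23, 0.0065 and 0.21 over all genes. At 37 °C r was -0.32, 0.56 and -0.38, beside -0.037, 0.15 and -0.11 over all genes. In naive cells r was -0.50, 0.60 and 0.073, beside -0.27, 0.28 and 0.064 over all genes. The points of each r share a library and its depth, so these are descriptions with no test. Without naive library 1, all 52 factors were called higher at 39 °C and at 37 °C against naive, where 31% and 31.9% of all genes were.

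**Figure D5:**
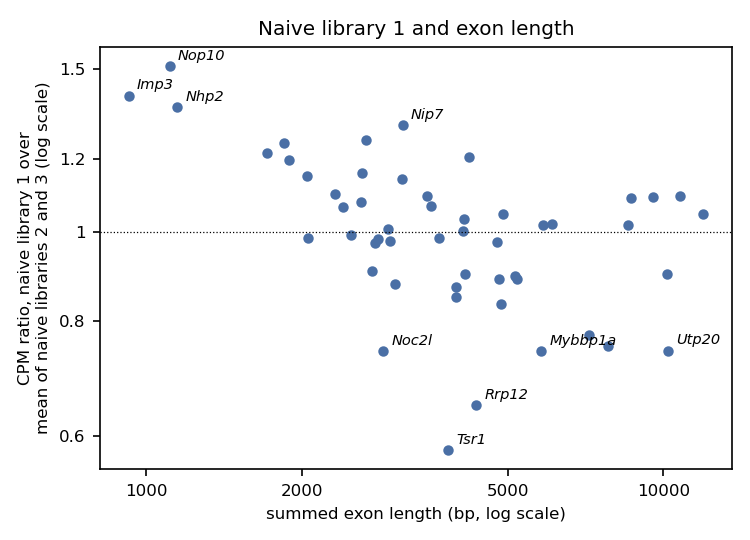
Each point is 1 of the 52 factors, with its summed exon length in bp on a log scale and the ratio of its CPM in naive library 1 to the mean of naive libraries 2 and 3 on a log scale. The shortest genes, Imp3, Nop10 and Nhp2, lie at 1.37 to 1.51, and Tsr1, Rrp12, Mybbp1a, Noc2l and Utp20, with 2867 to 10199 bp, lie between 0.58 and 0.743.

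Some of the genes are hosts of snoRNAs. Annotated snoRNA genes lay within 7 of the 52 (13.5%), against 193 of 11159 tested protein-coding genes (1.73%). The hosts were Nop56 with 5 snoRNA genes, Nop58 with 4, Ncl, Gnl3 and Wdr43 with 3 each, Tsr1 with 2 and Dkc1 with 1, 21 in all. The snoRNAs themselves gathered at most 485 counts over all 9 libraries in any host, so their levels are not described. Pseudogene copies that match a factor with at least 95% identity were annotated for 8 of the 52, and their counts came to at most 1.13% of those of the parent gene, for Npm1. Exons of 24 factors overlap those of another gene, in 21 cases on the opposite strand, and the overlap reached 10% of exon length in 4: Tsr1, Noc2l (20.9%), Wdr3 (16.2%) and Utp14a (11.5%). Reads of such partners cannot be told apart without the strand setting.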

How the data were processed

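RNA from 9 libraries of mouse splenic CD4+ T cells was analysed, 3 per group as named in the labels. Total RNA was extracted with TRIzol and prepared with a TruSeq kit, per the labels' protocols. The authors deposited 1 table per library with whole-number read counts for each gene and no normalisation. GRCm38 is the build in the submitters' processing notes, which also list DESeq2, HTSeq, HISAT2 and FastQC. The deposited tables have names of the kind that STAR gives to its gene counts, so the tool that made the counts is uncertain, and each table holds a single count column. The roles of the tools, which annotation was used and how strand was treated are not given in the sources used here. Of 55573 identifiers, 55480 matched GENCODE M21, which supplied symbols, exon lengths and coordinates.

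The filter filterByExpr (at least 10 counts, at least 15 in total) chose the genes, which were scaled by TMM and fitted in 1 model of all 9 libraries with edgeR 4.0.16 in R 4.3.3. Quasi-likelihood F tests were 2-sided and adjusted by Benjamini-Hochberg over 13328 genes with a threshold of 0.05. A standard error is the fold change divided by the root of F. The fit was tested on simulated data: of genes changed 4-fold and 2-fold between 39 °C and 37 °C it recovered 50 of 50 and 38 of 50, and 7 unchanged genes of 12884 were called. Depth was 12647692 to 17605549 counts per library.

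The 52 genes, the roles and the other lists were chosen with earlier results of these data known, so their counts are descriptions. Every factor could be named for the comparisons with naive cells, the 10 with the lowest unadjusted p for 39 °C against 37 °C, and up to 3 rises and 3 falls of the other pathway genes, beside Myc, Ubtf, Rrn3, Polr1a and Polr1b. Alternatives were RLE, upper-quartile and library size scaling, other count filters, a threshold of 0.01, a replicate block, DESeq2 1.42.0, leaving out each library and fitting only the 6 libraries of a comparison. Levels per length of the longest transcript were added after the data were seen. Promoter windows are from RefSeq (GRCm38.p6). Protein features were planned and were not analysed here.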

Additional observations from a re-analysis of the deposited data

How the results depend on the processing

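Under all alternatives run, 50 to 52 biogenesis factors were called higher against naive cells at 39 °C and 50 to 52 at 37 °C, DESeq2 and the replicate block included. The absence of calls between 39 °C and 37 °C was less firm. The 6 activated libraries alone gave 2 factors called lower, and leaving out a library gave 0 to 1. Over all genes, the 18 calls higher at 39 °C became 43 with any count, 38 with DESeq2, 136 with 6 libraries alone and 8 at the 0.01 threshold, and 7 to 89 when a library was left out. The 83 calls lower became 133, 265 and 37 with any count, 6 libraries and the 0.01 threshold, and 30 to 202 when a library was left out. Without naive library 1 they were 89 and 202. The cause was not tested. Of the other pathway genes, the 5 called lower at 37 °C against naive became 3 with 6 libraries alone, 2 at the 0.01 threshold and 2 to 5 when a library was left out, with 2 without library 2 at 37 °C (Nsa2 then had a log2 fold change of -0.34). The 2 called lower at 39 °C became 4 with library size alone, 6 with upper-quartile scaling and up to 4 when a library was left out. Upper-quartile scaling moved the median of all genes to -0.13 at 39 °C and -0.14 at 37 °C against naive, and that of the 52 factors to 1.28 and 1.31. Imp3 turned negative at 39 °C and 37 °C under that scaling (-0.024 and -0.0074). Leaving out a library gave Imp3 -0.064 to 0.28 at 39 °C and -0.041 to 0.30 at 37 °C. The change of Rrn3 between 39 °C and 37 °C, 0.017, was -0.0081 to 0.042 when a library was left out, negative without library 1 at 39 °C. CACGTG was in 9 windows with the bases after the start and in 2 without them.

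Replicate numbers occur in every group. The deviations of same-numbered libraries correlated at -0.24 to 0.43, and those of differently numbered ones at -0.46 to 0.47. No pairing by number was visible, but such correlations cannot exclude it, because other differences between libraries also enter them. With the numbers as a replicate block, 50 factors were called higher at 39 °C and 50 at 37 °C against naive, and 0 between 39 °C and 37 °C. The lowest level of any factor in a library was 18.8 CPM, for Tsr1.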
